A study of Mus musculus with 9 samples.

Results

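Loss of the macrophages themselves and loss of connexin 43 from macrophages were set side by side in the mouse atrioventricular (AV) node by bulk RNA sequencing. The macrophage-depleted group consisted of 3 libraries (7, 8 and 9) from Cd11bDTR mice. These mice carry the diphtheria toxin receptor under the promoter of CD11b, an integrin subunit of macrophages, monocytes and neutrophils, so that CD11b-bearing cells of any kind can be killed by the toxin. The other group consisted of 3 libraries (4, 5 and 6) labelled Cx3cr1 Cx43-/-, in which the connexin 43 gene, Gja1, is deleted in cells that express the fractalkine receptor gene Cx3cr1, which marks macrophages and other mononuclear phagocytes. A further 3 control libraries (1, 2 and 3) are shown beside them and share the fit. All mice were of the C57BL/6J strain and all RNA came from the microdissected node. The form of the Cre driver, the toxin dose and its timing, whether control mice received toxin, the age of the mice and any pooling of nodes are not given in the sources used here. Genes entered when they had at least 1 CPM (count per 1000000) in at least 3 of the 6 libraries compared, and 12600 of 34198 listed symbols did. Of these, 44 passed only through the macrophage-depleted libraries and 278 only through the Cx3cr1 Cx43-/- libraries, so that a difference was built into them.

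The AV node is the slowly conducting bridge between atria and ventricles. Its cells fire and conduct largely through hyperpolarization-activated channels and calcium channels, and current passes from cell to cell through gap junctions built of connexins. Resident macrophages lie between these myocytes, take up debris and iron, present antigen and can couple to myocytes through connexin 43. By their labels, macrophages of the Cx3cr1 Cx43-/- mice lack that connexin, whereas macrophages of the Cd11bDTR mice are depleted. The comparison sets both labelled states beside each other in the same tissue.

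Differences are given below as macrophage-depleted minus Cx3cr1 Cx43-/- on the scale log2(CPM + 0.5), which understates the change of low genes, with limma's moderated test and Benjamini-Hochberg adjustment over all 12600 genes. A gene is called when its adjusted p is under 0.05. Where values are set against each other, those of Cx3cr1 Cx43-/- libraries 4, 5 and 6 come first and those of macrophage-depleted libraries 7, 8 and 9 second, both as deposited, and a value named rescaled is the log2 difference after rescaling. The deposited CPM of listed genes added up to 46.83% to 47.94% of 1000000 in the Cx3cr1 Cx43-/- libraries and to 43.98%, 37.73% and 28.3% in macrophage-depleted libraries 7, 8 and 9, with 42.82% to 48.71% in controls. Every comparison was therefore fitted on the deposited scale and again after each library was rescaled to a common total over listed genes, which moved the median difference of all genes up by 0.358. On the deposited scale 348 genes (2.76%) were higher with macrophages depleted and 5190 (41.2%) lower, around a median difference of -0.574. Rescaling left 2679 lower genes (21.3%) and gave 1093 higher ones (8.67%) around a median of -0.215. With median-of-ratios scaling, which sets the typical gene level, 1707 (13.5%) were higher and 1614 (12.8%) lower, around a median of -0.04. No gene was called in opposite directions on the deposited and the rescaled scale, and 347 genes were higher and 2679 lower on both. The groups did not overlap in 430 higher (3.41%) and 6404 lower genes (50.8%) on the deposited scale, and in 1722 (13.7%) and 3998 (31.7%) after rescaling. The same comparison simulated over 12600 genes recovered 33.8% of genes given a log2 change of 1 and 91.4% of genes given a log2 change of 2. The labels call the libraries biological replicates without naming single mice.

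**Figure D1:**
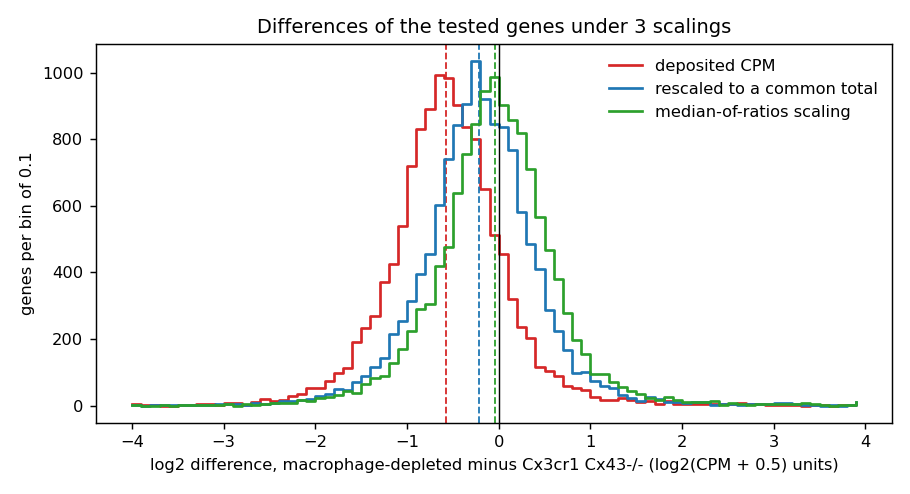
Distribution of log2 differences (x axis, macrophage-depleted minus Cx3cr1 Cx43-/-) over 12600 genes (y axis, number of genes) under 3 scalings, with a dashed line at each median. The medians sit at -0.574 on the deposited scale, -0.215 after rescaling to a common total and -0.04 with median-of-ratios scaling, so the share of genes on either side of 0 depends on the scaling.

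Gja1, the gene deleted in macrophages of the Cx3cr1 Cx43-/- mice, was higher in those libraries than in the macrophage-depleted ones. It stood at 179, 229 and 249.99 CPM in Cx3cr1 Cx43-/- libraries 4, 5 and 6, at 89.9, 56.8 and 68.3 CPM in macrophage-depleted libraries 7, 8 and 9, and at 246, 163 and 211 CPM in controls 1, 2 and 3 (log2 difference -1.62, SE 0.22, adjusted p = 1.37e-05, and -1.23, adjusted p = 0.000146, after rescaling). All 3 macrophage-depleted values lay below every other library, and the Cx3cr1 Cx43-/- values lay within and just above the control range. Whole-node RNA counts connexin 43 of every cell type, so these values check neither the deletion nor its extent. Cx3cr1 itself was low in all libraries, at 2.74, 3.11 and 5.87 CPM against 1.85, 1.42 and 2.93 CPM, and the groups overlapped (log2 difference -0.76, adjusted p = 0.0874, and -0.42, adjusted p = 0.428, after rescaling). Itgam, the gene of CD11b, measured 7.57, 11.4 and 7.99 CPM against 9.72, 2.34 and 7.35 CPM, with macrophage-depleted library 7 inside and libraries 8 and 9 below the other group's range (log2 difference -0.61, adjusted p = 0.262, and -0.25, adjusted p = 0.725, after rescaling). Hbegf, an EGF-family growth factor, was higher, with 10.1, 13.3 and 11.8 CPM against 53.8, 27.7 and 18.8 CPM (log2 difference 1.35, SE 0.29, adjusted p = 0.00108, rescaled 1.72). The groups did not overlap. The diphtheria toxin receptor in Cd11bDTR mice is the human form of this gene, and whether reads of the human form were counted here was not tested.

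Genes of resident macrophages were lower in the macrophage-depleted libraries. Of 39 such genes, all tested, 30 were lower and 1 higher on the deposited scale, where 41.2% of all genes were lower and 2.76% higher. After rescaling 26 were lower and 2 higher (1 higher without library 6, 4 without library 7), against 21.3% and 8.67% of all genes, and the median difference of the list was -1.79 (deposited) and -1.46 (rescaled). Of the 39 members, 6 passed the expression filter through a single group, and their difference was built in. The summed level of the list was 1414 to 1702 CPM in Cx3cr1 Cx43-/- libraries and 730.2 to 1137 CPM in macrophage-depleted ones and 1150 to 1490 CPM in controls. In bulk tissue, fewer cells of a type and less RNA per cell cannot be told apart.

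Several macrophage genes were nearly absent from the macrophage-depleted libraries. Retnla, a secreted protein of alternatively activated macrophages, stood at 29.3, 19.3 and 30.6 CPM in Cx3cr1 Cx43-/- libraries against 0.16, 0 and 0.71 CPM in macrophage-depleted ones. Cd163, the scavenger receptor for haemoglobin-haptoglobin, had 18.7, 29.4 and 16.8 CPM against 0.31, 0 and 0.34 CPM. Mgl2, a galactose-binding lectin receptor, stood at 16.6, 25.5 and 14.3 CPM against 0.14, 0.38 and 0.38 CPM. Log2 differences of these genes were -5.16, -4.95 and -4.57 on the deposited scale and -4.91, -4.73 and -4.32 after rescaling. On the deposited scale they were the largest decreases among genes with characterised symbols that met the following rule. Such genes were called on both scales, averaged at least 5 CPM in their higher group and did not overlap between groups. All 3 passed the filter through the Cx3cr1 Cx43-/- libraries alone, as did Timd4, so that a difference was built in. Mrc1, the mannose receptor, measured 53.5, 69.7 and 50.8 CPM against 4.28, 2.47 and 2.91 CPM (log2 difference -3.99, SE 0.24, adjusted p = 4.65e-11, rescaled -3.64). Folr2, the folate receptor of resident macrophages, stood at 21.2, 23.8 and 19.3 CPM against 0.62, 0.02 and 3.17 CPM, and Fcrls, an Fc-receptor-like scavenger, at 21.4, 20.9 and 20.3 CPM against 0.71, 0.04 and 2.77 CPM. For both genes library 9 stood above libraries 7 and 8 and still lay below every Cx3cr1 Cx43-/- library. Timd4, a phosphatidylserine receptor of long-lived resident macrophages, was listed at 0.33, 0 and 0 CPM in macrophage-depleted libraries and at 4.94, 5.03 and 2.7 CPM in the others.

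Other macrophage genes were lower without coming near 0. Csf1r, the receptor for the macrophage growth factor CSF1, had 64.3, 76.99 and 73.1 CPM against 7.77, 6.04 and 11.8 CPM (log2 difference -3.04, SE 0.25, adjusted p = 8.13e-09, rescaled -2.67). C1qc, a chain of complement C1q, which macrophages make, stood at 61.98, 72.97 and 57.05 CPM against 4.71, 4.66 and 9.87 CPM (log2 difference -3.30, SE 0.27, adjusted p = 5.84e-09, rescaled -2.92). Library 9 was the highest macrophage-depleted library for both. Of 25 tested complement and coagulation genes in all, 1 was higher and 10 lower on the deposited scale (3 higher without library 9), 8 and 6 after rescaling (4, 3 and 4 higher without libraries 4, 6 and 8). Among all genes, 2.76% were higher and 41.2% lower on the deposited scale, and 8.67% and 21.3% after rescaling. The 1 resident macrophage gene called higher on the deposited scale was Gpnmb, a lysosomal glycoprotein of phagocytes filled with lipid or debris, at 9.3, 11.98 and 8.65 CPM against 18.9, 19.6 and 15.1 CPM (log2 difference 0.81, SE 0.27, adjusted p = 0.0176, rescaled 1.19). The groups did not overlap, and the call was lost without Cx3cr1 Cx43-/- library 4 or 6 or macrophage-depleted library 8, where the adjusted p reached 0.0822. Cbr2, a carbonyl reductase, measured 29.5, 31.8 and 23.1 CPM against 0.69, 5.24 and 2.09 CPM and lay with the largest decreases (log2 difference -3.45, SE 0.36, adjusted p = 4.03e-07, rescaled -3.10).

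Antigen presentation genes of MHC class II were lower too. Of 15 listed genes of this class and of dendritic cells 9 were tested. Of these, 6 were lower and 0 higher on the deposited scale, 4 and 0 after rescaling, beside 41.2% and 21.3% of all genes lower. H2-Aa, the alpha chain of the presenting molecule, was lower, with 29.7, 42.6 and 27.01 CPM against 8.87, 4.22 and 6.87 CPM (log2 difference -2.26, SE 0.29, adjusted p = 5.9e-06, rescaled -1.89). Cd74, its invariant chain, had 70.8, 91.2 and 64.1 CPM against 19.6, 12.97 and 23.8 CPM (log2 difference -2.002, SE 0.26, adjusted p = 6.28e-06, rescaled -1.62). Neither gene's groups overlapped, and the controls reached further up than both groups, to 63.2 CPM for H2-Aa and 159 CPM for Cd74.

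Genes of monocytes and neutrophils moved the other way. Of 22 listed genes 11 were tested, and 6 were higher and 0 lower on both the deposited and the rescaled scale. Beside these stand 2.76% and 8.67% of all genes higher. Chi3l3, a chitinase-like protein of activated myeloid cells, stood at 0.07, 0.25 and 0.2 CPM in the Cx3cr1 Cx43-/- libraries and at 28.7, 26.4 and 12.4 CPM in the macrophage-depleted ones (log2 difference 5.02, rescaled 5.30), having passed the filter through the latter alone. Plac8, a protein of inflammatory monocytes, stood at 0.85, 1.51 and 0.27 CPM against 6.28, 12.8 and 1.91 CPM (log2 difference 2.23, SE 0.56, adjusted p = 0.00374, rescaled 2.53). Fn1, fibronectin, which monocytes share with fibroblasts, measured 110.33, 112 and 146 CPM against 289, 252 and 211 CPM (log2 difference 1.03, SE 0.21, adjusted p = 0.000613, rescaled 1.41). Ccr2, the receptor that draws monocytes into tissue, stood at 3.78, 7.53 and 4.26 CPM against 6.16, 8 and 15.1 CPM, and the groups overlapped (adjusted p = 0.0928, 0.0628 after rescaling and 0.0341 when median-of-ratios factors were used). The neutrophil genes Ly6g and Mpo were at 0 in all 9 libraries, and S100a8 was listed at 3.31, 1.63 and 0 CPM in macrophage-depleted libraries 7, 8 and 9. The summed level of the 22 genes was 214.1 to 262.2 CPM against 449.0 to 811.2 CPM. Since 2 further members, Lcn2 and Hp, are also acute phase genes of non-myeloid cells, the sum does not count monocytes.

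Mast cell genes were nearly absent from the macrophage-depleted libraries. Of 12 listed genes 6 were tested, and 5 of them were lower and 0 higher on the deposited, rescaled and median-of-ratios scales (4 lower with quantile normalization). The shares of all genes lower on the deposited, rescaled and median-of-ratios scales were 41.2%, 21.3% and 12.8%. Mcpt4, a mast cell chymase, had 7.44, 7.93 and 4.71 CPM against 0.35, 0.84 and 1.08 CPM (log2 difference -2.53, SE 0.34, adjusted p = 1.12e-05, rescaled -2.23). Kit, the receptor for stem cell factor on mast cells and some other cells, stood at 5.11, 4.47 and 4.22 CPM against 0.76, 1.46 and 0.32 CPM. Cpa3, the mast cell carboxypeptidase, measured 4.66, 5.61 and 4.46 CPM against 0.21, 0 and 0 CPM, but it passed the filter through the Cx3cr1 Cx43-/- libraries alone, so that its difference was built in. None of these 3 overlapped between groups. The 12 genes summed to 27.27 to 33.91 CPM against 3.59 to 5.86 CPM. The 16 genes of T, B and natural killer cells summed to 12.3 to 16.67 CPM against 16.28 to 23.8 CPM. Only Thy1 of these, which fibroblasts share, was tested, and it was higher, at 8.88, 9.5 and 13.2 CPM against 17.7, 16.98 and 14.8 CPM with no overlap (log2 difference 0.64, SE 0.24, adjusted p = 0.0367, and 1.01, adjusted p = 0.00157, after rescaling). Its deposited call was lost without library 4, 5 or 8 (adjusted p up to 0.149).

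Among the 12 largest increases were secreted proteins known from the acute phase and from injured tissue. Timp1, an inhibitor of matrix metalloproteinases, stood at 12.1, 12.3 and 12.3 CPM in the Cx3cr1 Cx43-/- libraries and 439, 402 and 259.59 CPM in the macrophage-depleted ones (log2 difference 4.82, SE 0.22, adjusted p = 3.75e-13, and 5.20, adjusted p = 5.51e-13, after rescaling). Lcn2, the iron-siderophore carrier lipocalin 2, was higher, with 2.63, 2.09 and 0.92 CPM against 133, 99.3 and 61.7 CPM (log2 difference 5.38, SE 0.34, adjusted p = 5.84e-11, rescaled 5.73). Spp1, osteopontin, a matrix protein of wounds, had 12.7, 12.8 and 24.4 CPM against 549.97, 675 and 537 CPM (log2 difference 5.16, SE 0.28, adjusted p = 1.03e-11, rescaled 5.54). In these the Cx3cr1 Cx43-/- libraries lay with the controls, at 13.6, 12.3 and 12.8 CPM for Timp1, 1.12, 2.12 and 2.48 CPM for Lcn2 and 7.52, 19.6 and 14.8 CPM for Spp1. Serpina3n, a protease inhibitor of the acute phase, stood at 12.4, 18.4 and 15.1 CPM against 677, 673 and 347 CPM (log2 difference 5.12, SE 0.25, adjusted p = 1.83e-12, rescaled 5.50). Chi3l1, a chitinase-like glycoprotein, measured 3.51, 3.18 and 2.81 CPM against 147, 118 and 75.1 CPM (log2 difference 4.91, SE 0.30, adjusted p = 4.65e-11, rescaled 5.27). Among the 3 macrophage-depleted libraries, 9 was the lowest in each of these 5 genes, and it was also the library with the smallest share of CPM in listed genes. After rescaling, library 9 stayed the lowest for Timp1, Lcn2, Serpina3n and Chi3l1. For Spp1 it became the highest, with 539.8, 772.5 and 818.7 CPM in libraries 7, 8 and 9. Any further part of that share in the result was not tested. Serpina3m, a paralog of Serpina3n, was listed at 0 in all Cx3cr1 Cx43-/- libraries and at 5.73, 8.96 and 4.4 CPM in the macrophage-depleted ones, through which alone it passed the filter. Reads of these near relatives may have been split between them.

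**Figure D2:**
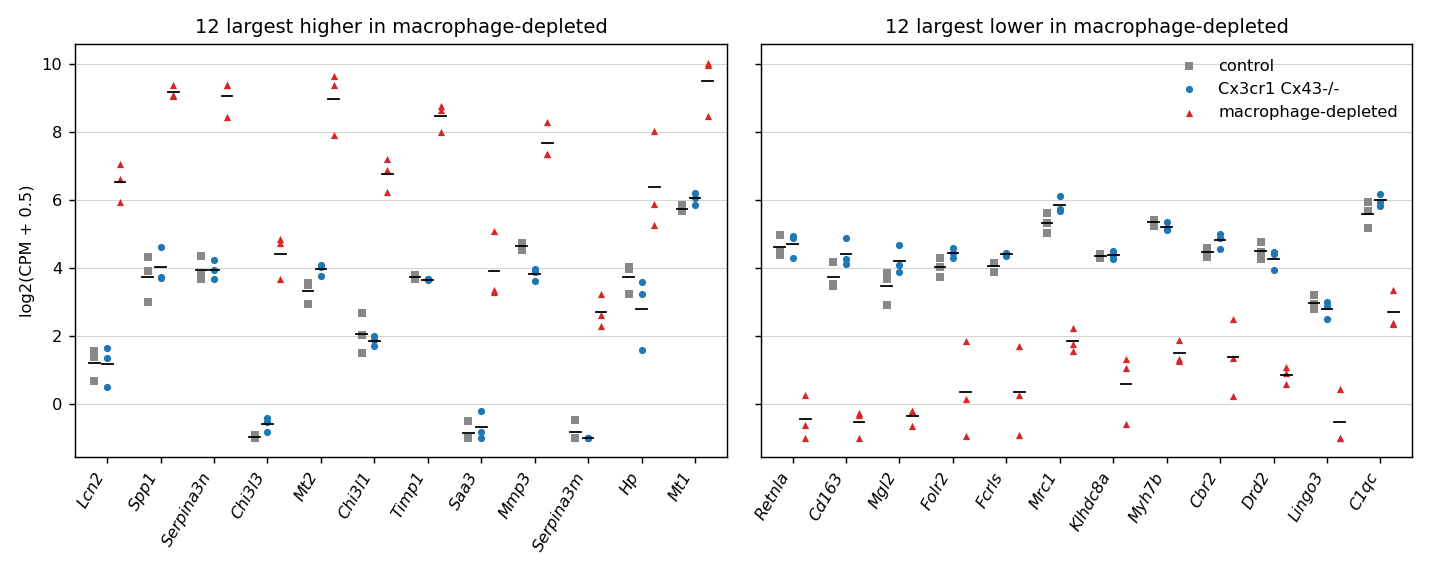
The 12 largest increases and the 12 largest decreases among genes with characterised symbols. All were called on both scales, averaged at least 5 CPM in their higher group and did not overlap between groups. Points are single libraries on a log2(CPM + 0.5) axis, coloured by group, with a bar at each group mean, and in each gene the control libraries lie nearer to the Cx3cr1 Cx43-/- libraries than to the macrophage-depleted ones.

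Acute phase genes and targets of STAT3, the factor through which interleukin-6-type cytokines act, were mostly higher as a list. Of 38 genes 26 were tested, and 15 were higher and 3 lower on the deposited scale, 19 and 1 after rescaling, where 8.67% of all genes were higher. The count of 3 fell to 1 without library 4, 5 or 6. The median difference was 1.59 on the deposited scale, and 2 of the 26 passed the filter through a single group. Socs3, a feedback inhibitor of this signal, was higher, with 4.57, 6.74 and 8.05 CPM against 73.99, 30.5 and 16.6 CPM (log2 difference 2.32, SE 0.36, adjusted p = 4.94e-05, rescaled 2.70). The receptor subunits of this family moved apart. Osmr, for oncostatin M, stood at 17.4, 24.1 and 19.6 CPM against 63.4, 50.9 and 39.1 CPM (log2 difference 1.29, SE 0.22, adjusted p = 0.000163, rescaled 1.68), whereas Lifr, for leukaemia inhibitory factor, stood at 32.6, 40.3 and 33.6 CPM against 13.4, 10.9 and 14.6 CPM (log2 difference -1.42, SE 0.23, adjusted p = 7.23e-05, rescaled -1.04). Neither overlapped between groups. Saa3, a serum amyloid A of inflamed tissue, passed the filter through the macrophage-depleted libraries alone and stood at 0, 0.37 and 0.07 CPM against 9.32, 34.01 and 9.86 CPM, and Hp, haptoglobin, at 2.5, 11.7 and 9.04 CPM against 58.9, 264 and 38.2 CPM (log2 difference 3.59, SE 0.49, adjusted p = 1.29e-05, rescaled 3.96). For both, macrophage-depleted library 8 was several times above libraries 7 and 9. That library was also the highest for the fat cell genes described further on, and their part in Hp was not tested.

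Inflammatory genes and targets of the factor NF-kB were higher in part. Of 32 genes 22 were tested, and 8 were higher and 0 lower on the deposited scale (13 and 0 without library 9, 7 and 3 without library 7), 15 and 0 after rescaling. The shares of all genes higher on these scales were 2.76% and 8.67%. Ccl2, a chemokine that recruits monocytes, was higher, with 2.48, 3.79 and 2.02 CPM against 20.6, 19.6 and 15.2 CPM (log2 difference 2.56, SE 0.40, adjusted p = 4.81e-05, rescaled 2.92). Ptx3, a soluble pattern recognition protein, had 5.31, 3.47 and 3.95 CPM against 43.9, 29.6 and 23.1 CPM (log2 difference 2.75, SE 0.31, adjusted p = 1.22e-06, rescaled 3.12). Ptgs2, cyclooxygenase-2, stood at 3.33, 3.55 and 2.92 CPM against 20.6, 10.7 and 10.2 CPM (log2 difference 1.86, SE 0.32, adjusted p = 0.000151, rescaled 2.22). The cytokine Il6 stayed low, at 0.33, 0.32 and 0.03 CPM against 3.49, 1.38 and 2.42 CPM, and passed the filter through the macrophage-depleted libraries alone. In none of these 4 genes did the groups overlap.

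Metallothioneins, small proteins that bind zinc and copper and are made in answer to metal, glucocorticoid and cytokine signals, were among the most abundant increases. Mt1 stood at 74.4, 57.9 and 67.4 CPM in the Cx3cr1 Cx43-/- libraries and 1059, 1022 and 359 CPM in the macrophage-depleted ones (log2 difference 3.45, SE 0.29, adjusted p = 8.44e-09, rescaled 3.84). Mt2 measured 16.02, 13.3 and 16.8 CPM against 806, 667 and 242 CPM (log2 difference 5.01, SE 0.31, adjusted p = 4.65e-11, rescaled 5.39). Library 9 was lowest of the 3 for both and still above every Cx3cr1 Cx43-/- library. Mt3, the form best known from brain, stood at 6.64, 5.71 and 7.34 CPM against 7.56, 12.1 and 3.28 CPM, and the groups overlapped (log2 difference 0.05, adjusted p = 0.915, and 0.40, adjusted p = 0.335, after rescaling). The Mt1 and Mt2 genes are neighbours, and the 250 bases before each start are shown because the 2 genes moved together and because metal response elements, bound by the zinc-sensing factor MTF1, are known in metallothionein promoters. Both are RefSeq sequences of build GRCm38.p6 on the plus strand, 5′ to 3′, at chr8:94178839-94179088 for Mt1 and chr8:94172368-94172617 for Mt2, and capitals mark matches to the core TGCNCNC, in which N is any base, on either strand and with overlap allowed.
Mt1: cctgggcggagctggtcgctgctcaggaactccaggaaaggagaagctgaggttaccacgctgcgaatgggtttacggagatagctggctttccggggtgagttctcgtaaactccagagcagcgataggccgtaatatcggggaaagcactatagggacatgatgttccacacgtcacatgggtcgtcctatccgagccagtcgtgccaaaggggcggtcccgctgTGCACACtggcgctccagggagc
Mt2: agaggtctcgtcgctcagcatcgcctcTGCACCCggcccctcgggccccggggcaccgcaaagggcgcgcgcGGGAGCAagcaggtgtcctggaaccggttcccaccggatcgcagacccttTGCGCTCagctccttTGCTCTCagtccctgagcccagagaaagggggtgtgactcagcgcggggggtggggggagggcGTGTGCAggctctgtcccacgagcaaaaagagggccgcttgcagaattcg
The Mt2 window held 5 matches, 3 on the plus strand and 2 on the minus strand, and the Mt1 window held 1. Over all 32851 promoters, counted in the same way over the 250 bases before the start, 44.4% held at least 1 match and 0.344% at least 5. A match is a description of letters and shows no binding.

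Iron genes were called in both directions, with a share of lower genes near that of all genes. Of 22 tested, 4 were higher and 8 lower on the deposited scale, 6 and 6 after rescaling. Over all genes, 2.76% were higher and 41.2% lower on the deposited scale, and 8.67% and 21.3% after rescaling. Tfrc, the transferrin receptor that takes iron into cells, had 57.5, 71.5 and 86.7 CPM against 18.3, 15.5 and 16.4 CPM (log2 difference -2.05, SE 0.21, adjusted p = 2.65e-07, rescaled -1.67). Slc40a1, ferroportin, the only known iron exporter and abundant in macrophages, stood at 13.9, 12.4 and 10.9 CPM against 2.71, 3.28 and 4.88 CPM (log2 difference -1.67, SE 0.28, adjusted p = 0.0001, rescaled -1.31). Hamp, the hormone hepcidin, which degrades ferroportin, measured 34.2, 28.2 and 21.6 CPM against 79.8, 61.5 and 46.5 CPM (log2 difference 1.14, SE 0.25, adjusted p = 0.00149, rescaled 1.52). For none of these 3 genes did the groups overlap. Fth1, the heavy chain of the iron store ferritin, stood at 1089, 913 and 994 CPM against 1542, 1693 and 974 CPM (log2 difference 0.45, adjusted p = 0.138, and 0.84, adjusted p = 0.00113, after rescaling), with library 9 inside the other group's range on the deposited scale only. Without library 9 its deposited difference was called as well (adjusted p = 0.00445).

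Glucocorticoid-responsive genes were mostly higher. Of 23 tested, 14 were higher and 2 lower on the deposited scale (1 lower without library 5), and 17 and 2 after rescaling (1 lower without library 4, 5, 7, 8 or 9), with a median of 0.98 before rescaling. The shares of all genes higher on these scales were 2.76% and 8.67%. Fkbp5, a chaperone that feeds back on the glucocorticoid receptor, had 21.2, 17.5 and 10.5 CPM against 98.2, 81.5 and 36.4 CPM (log2 difference 2.04, SE 0.30, adjusted p = 2.91e-05, rescaled 2.42). Pdk4, the kinase that closes glucose oxidation, stood at 272, 124 and 320.28 CPM against 752, 767 and 456 CPM (log2 difference 1.53, SE 0.29, adjusted p = 0.00042, rescaled 1.92). Angptl4, an inhibitor of lipoprotein lipase, measured 7.62, 1.95 and 12.7 CPM against 51.4, 39.9 and 24.8 CPM (log2 difference 2.55, SE 0.44, adjusted p = 0.00016, rescaled 2.92). Cx3cr1 Cx43-/- library 5 was the lowest of its group for Pdk4 and Angptl4, and neither gene overlapped between groups. The receptor gene itself, Nr3c1, was lower, at 39.5, 55.3 and 57.4 CPM against 22.9, 24.4 and 19.1 CPM (log2 difference -1.17, SE 0.21, adjusted p = 0.000264, rescaled -0.79).

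Immediate early genes, transcription factors induced within minutes of a stimulus, were higher in the macrophage-depleted libraries. Of 23 tested, 13 were higher and 0 lower on the deposited scale, and 18 and 0 after rescaling, beside 2.76% and 8.67% of all genes higher. The median of the list was 1.04 before rescaling. Junb, an AP-1 subunit, was higher, with 12.1, 22.5 and 16.4 CPM against 91.8, 51.2 and 36.6 CPM (log2 difference 1.73, SE 0.28, adjusted p = 8.11e-05, rescaled 2.11). Maff, a small bZIP factor, had 5.29, 5.52 and 4.29 CPM against 52.9, 26.8 and 17.8 CPM (log2 difference 2.44, SE 0.31, adjusted p = 5.36e-06, rescaled 2.81). Myc, a driver of growth, stood at 5.54, 3.75 and 5.65 CPM against 23.7, 20.7 and 13.9 CPM (log2 difference 1.85, SE 0.29, adjusted p = 5.54e-05, rescaled 2.22). In all 3 genes library 7 was the highest and library 9 the lowest macrophage-depleted library, an order that the share of CPM in listed genes (43.98%, 37.73% and 28.3%) also follows and whose part was not tested. After rescaling, Junb still stood at 90.05, 58.6 and 55.8 CPM in libraries 7, 8 and 9, and Maff at 51.9, 30.7 and 27.1 CPM. Myc did not keep the order, at 23.2, 23.7 and 21.2 CPM.

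Some clock genes were higher, beside 2.76% of all genes on the deposited scale and 8.67% after rescaling. Fewer were lower than the 41.2% and 21.3% of all genes on the 2 scales. Of 20 tested, 4 were higher and 5 lower on the deposited scale, 6 and 2 after rescaling (1 lower without library 4, 5, 6 or 8). The count of 4 became 7 without library 9, and the count of 5 became 2, 3 and 8 without libraries 5, 6 and 7. Per2, a repressor of the clock, measured 5.26, 9.16 and 5.61 CPM against 28.4, 19.7 and 12.1 CPM (log2 difference 1.48, SE 0.33, adjusted p = 0.00134, rescaled 1.85). Gm129, an older symbol of the repressor Ciart, was higher, with 1.26, 1.1 and 1.37 CPM against 19.6, 15.5 and 3.97 CPM (log2 difference 2.70, SE 0.48, adjusted p = 0.0002, rescaled 3.03). Nfil3, a repressor of D-box genes, had 9.68, 7.71 and 8.09 CPM against 32.5, 27.3 and 21.1 CPM (log2 difference 1.60, SE 0.24, adjusted p = 4.19e-05, rescaled 1.97). The activators lay on the other side. Npas2 stood at 12.7, 10.1 and 9.94 CPM against 2.21, 2.11 and 5.19 CPM (log2 difference -1.73, SE 0.30, adjusted p = 0.000175, rescaled -1.37). Arntl measured 18.5, 20.03 and 16.8 CPM against 7.3, 3.84 and 12.2 CPM (log2 difference -1.32, adjusted p = 0.00123, and -0.95, adjusted p = 0.0463, after rescaling). Its rescaled call was lost without library 4, 5, 6, 7 or 8 (adjusted p up to 0.19) and when median-of-ratios factors were used (adjusted p = 0.104). The labels give no hour at which nodes were taken.

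Cardiac stress genes were mostly higher. Of 23 tested, 15 were higher and 3 lower on the deposited scale, 15 and 2 after rescaling (1 lower without library 5, 6, 8 or 9), and 2 had passed the filter through a single group. The shares of all genes higher on these scales were 2.76% and 8.67%. Nppb, the natriuretic peptide BNP, was higher, with 88.5, 100.35 and 140.14 CPM against 869, 372 and 293 CPM (log2 difference 2.08, SE 0.29, adjusted p = 1.63e-05, rescaled 2.47). Ankrd1, a stretch-responsive protein of the sarcomere, had 1068, 957 and 1420 CPM against 5607, 3320 and 2323 CPM (log2 difference 1.63, SE 0.29, adjusted p = 0.000216, rescaled 2.02). Both were highest in library 7, and neither overlapped between groups. Nppa, the atrial natriuretic peptide, stood at 699, 557 and 776 CPM against 970.14, 518 and 366 CPM, and its difference changed sign with the scaling without being called on either scale (log2 difference -0.24, adjusted p = 0.631, and 0.15, adjusted p = 0.788, after rescaling). Ctgf, a matricellular protein and target of YAP and TGF-beta signals, measured 157, 128 and 158 CPM against 1834, 1720 and 947 CPM (log2 difference 3.29, SE 0.24, adjusted p = 8.21e-10, rescaled 3.68).

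Matrix remodelling genes were higher in part, beside 2.76% of all genes on the deposited scale and 8.67% after rescaling. The share called lower was below the 41.2% and 21.3% of all genes. Of 36 tested, 13 were higher and 12 lower on the deposited scale, and 14 and 4 after rescaling (7 lower without library 9). The count of 12 fell to 4 and 5 without Cx3cr1 Cx43-/- libraries 5 and 6. Mmp3, stromelysin, was higher, with 11.8, 15.2 and 14.4 CPM against 166, 315 and 164 CPM (log2 difference 3.85, SE 0.24, adjusted p = 4.65e-11, rescaled 4.23), with library 8 the highest. Lox, which crosslinks collagen and elastin, had 7.9, 7.15 and 8.36 CPM against 64.2, 45.7 and 43.4 CPM (log2 difference 2.62, SE 0.24, adjusted p = 3.71e-08, rescaled 2.99). Mmp15, a membrane-bound metalloproteinase, stood at 53.8, 60.1 and 61.98 CPM against 10.8, 5.89 and 7.87 CPM (log2 difference -2.80, SE 0.24, adjusted p = 1.12e-08, rescaled -2.43). Among 29 fibroblast and collagen genes, 2 were higher and 13 lower on the deposited scale (1 higher without library 4, 5 or 8, and 8 lower without library 5 or 8), 2 and 8 after rescaling (4 higher without library 8). Col15a1, a collagen of basement membrane zones, measured 203, 186 and 212 CPM against 90.1, 60.3 and 63.04 CPM (log2 difference -1.51, SE 0.20, adjusted p = 1.07e-05, rescaled -1.13).

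Connexins and their partners were lower beyond Gja1. Of 21 listed genes 10 were tested, and 8 were lower and 0 higher on the deposited scale, 5 and 0 after rescaling (1 higher without library 9), where 41.2% and 21.3% of all genes were lower. Of the 10, 2 had passed the filter through a single group. Gja5, connexin 40 of atrial and fast conducting myocytes, was lower, with 35.5, 29.4 and 31.7 CPM against 13.2, 6.85 and 7.98 CPM (log2 difference -1.78, SE 0.26, adjusted p = 2.85e-05, rescaled -1.41). Gja3, connexin 46, stood at 7.62, 9.22 and 6.55 CPM against 1.64, 1.3 and 0.75 CPM (log2 difference -2.28, SE 0.35, adjusted p = 5.15e-05, rescaled -1.99), and Panx2, a pannexin that passed through the Cx3cr1 Cx43-/- libraries alone, at 5.64, 5.33 and 5.07 CPM against 0.91, 0.27 and 0.38 CPM. None of these genes overlapped between groups. For the connexins typical of nodal myocytes the measured differences were smaller. Gjc1, connexin 45, stood at 18.2, 21.2 and 24.6 CPM against 16.1, 14.1 and 4.45 CPM, with library 9 far below libraries 7 and 8 (log2 difference -1.03, adjusted p = 0.0126, and -0.67, adjusted p = 0.0652, after rescaling). Gjd3, connexin 30.2, measured 8.57, 7.17 and 4.71 CPM against 3.26, 4.72 and 2.74 CPM, with overlap of the groups by library 6 and library 8 (log2 difference -0.84, adjusted p = 0.0284, and -0.49, adjusted p = 0.194, after rescaling). Both calls were thus lost after rescaling, and that of Gjd3 also without library 4, 5 or 9 (adjusted p up to 0.144).

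Genes that define the conduction system were mostly lower in the macrophage-depleted libraries, and the nodal markers Hcn4, Tbx3, Cntn2 and Gjd3 were above 0 in all 9 libraries. Of 31 listed genes 30 were tested, and 24 were lower and 0 higher on the deposited scale, 18 and 0 after rescaling, and 14 and 0 with median-of-ratios scaling. Beside these counts, 41.2%, 21.3% and 12.8% of all genes were lower. The median difference was -1.32 on the deposited scale, beside -0.574 for all genes. Hcn4, the main pacemaker channel, was lower, with 15.5, 19.9 and 15.7 CPM against 3.8, 1.8 and 2.66 CPM (log2 difference -2.47, SE 0.27, adjusted p = 6.9e-07, rescaled -2.12). Hcn2 had 10.2, 8.95 and 10.6 CPM against 2.24, 2.09 and 0.66 CPM (log2 difference -2.36, SE 0.32, adjusted p = 1.29e-05, rescaled -2.07). Cacna1g and Cacna1h, the T-type calcium channels of nodal pacemaking, stood at 86.5, 103 and 77.99 CPM against 29.6, 19.8 and 23.9 CPM and at 105, 115 and 92.8 CPM against 29.6, 20.1 and 18.6 CPM. Their log2 differences were -1.85 (SE 0.21) and -2.19 (SE 0.23), and -1.47 and -1.81 after rescaling.

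The list also held structural and transcriptional markers of nodal cells. Cntn2, a contactin of conduction myocytes, measured 135, 157 and 127 CPM against 37.1, 44.5 and 30.4 CPM (log2 difference -1.90, SE 0.20, adjusted p = 6.07e-07, rescaled -1.52). Tbx3, the repressor that keeps nodal cells from an atrial fate, was lower, with 31.2, 37.9 and 26.6 CPM against 16.3, 11.6 and 13.5 CPM (log2 difference -1.18, SE 0.22, adjusted p = 0.000365, rescaled -0.80). Shox2, a homeobox factor of pacemaker myocytes, had 15.2, 10.5 and 10.5 CPM against 18.2, 11.4 and 3.94 CPM, with the groups overlapping and a difference that changed sign with the scaling (log2 difference -0.32, adjusted p = 0.484, and 0.05, adjusted p = 0.923, after rescaling). Igfbp5, which binds insulin-like growth factors and is strong in the conduction system, stood at 285, 379.92 and 328 CPM against 65.6, 59.4 and 51.3 CPM (log2 difference -2.48, SE 0.21, adjusted p = 1.53e-08, rescaled -2.10). Summed over the 31 genes, the level was 1969 to 2056 CPM in the Cx3cr1 Cx43-/- libraries and 1597, 990.4 and 741.3 CPM in libraries 7, 8 and 9, with 1420 to 2557 CPM in controls. The ventricular myocyte list, which a dissection could carry along, was lower as well, at 7468 to 8268 CPM against 3636 to 5040 CPM, and its part in the conduction values was not tested.

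**Figure D3:**
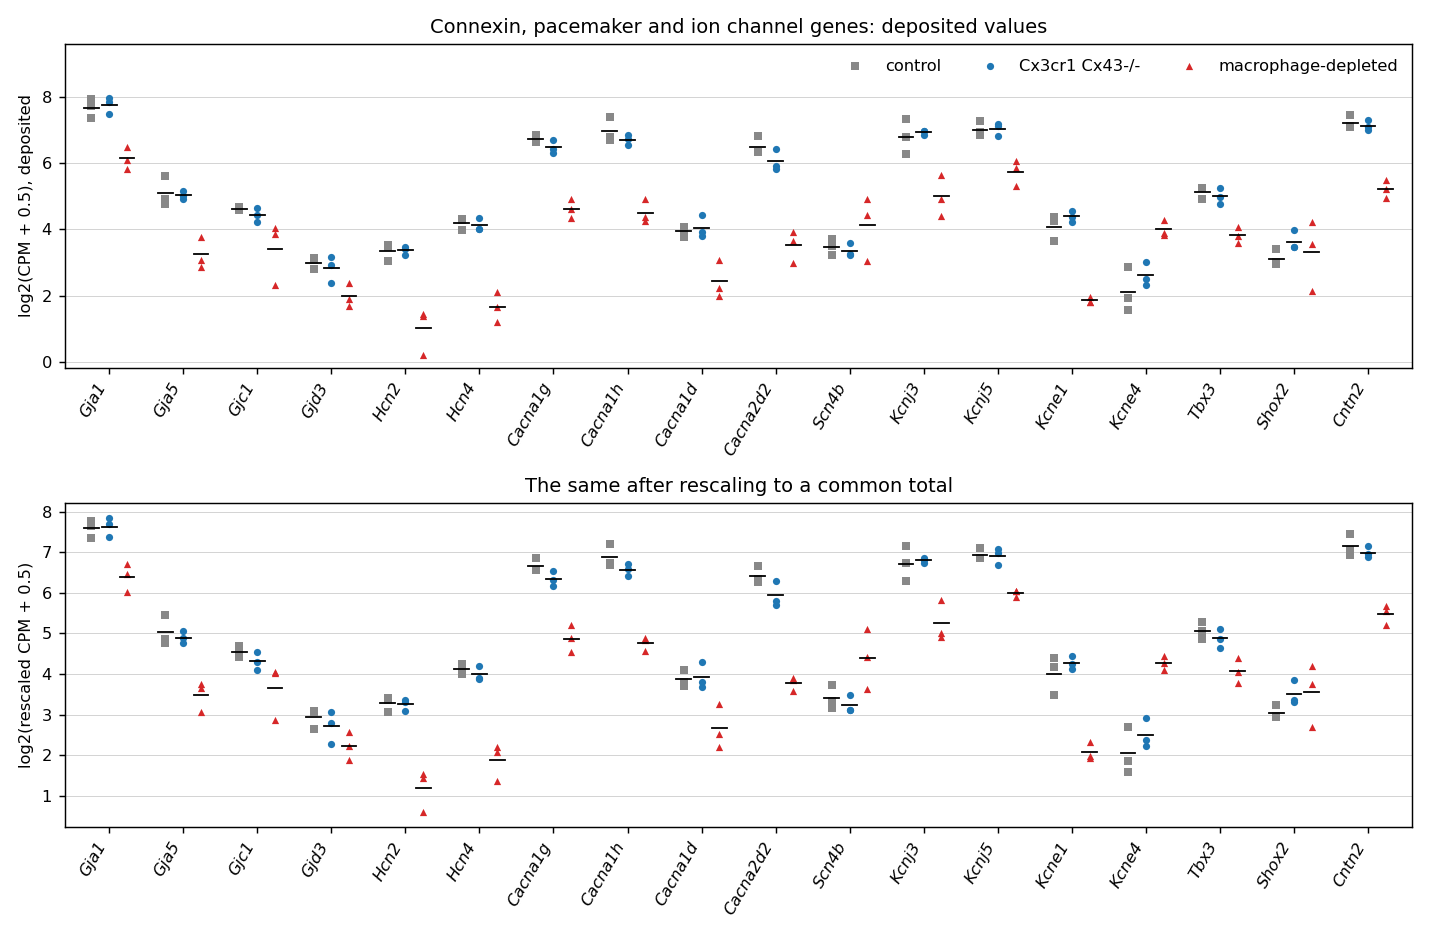
Levels of 18 conduction genes in single libraries on a log2(CPM + 0.5) axis, with deposited values above and values rescaled to a common total below, groups in separate colours and a bar at each group mean. The macrophage-depleted libraries lie below the Cx3cr1 Cx43-/- libraries on both scales for Gja1, Gja5, Hcn4, Cacna1g, Cacna1h, Cacna2d2 and Cntn2, overlap them for Shox2, and lie above them for Kcne4.

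Channels and pumps that move calcium and sodium were lower in part. Of 30 tested genes of calcium and sodium channels and calcium handling, 19 were lower and 0 higher on the deposited scale (1 higher without library 9), 16 and 1 after rescaling. Beside these counts, 41.2% and 21.3% of all genes were lower. Cacna2d2, an auxiliary calcium channel subunit, measured 56.5, 86.3 and 60.4 CPM against 14.7, 12.1 and 7.48 CPM (log2 difference -2.54, SE 0.25, adjusted p = 1.22e-07, rescaled -2.17). Atp2a2, the pump SERCA2 that refills the calcium store, was the most abundant member, at 7605, 8811 and 8193 CPM against 5525, 4012 and 3105 CPM (log2 difference -0.998, adjusted p = 0.015, and -0.61, adjusted p = 0.0192, after rescaling). Its call was lost without Cx3cr1 Cx43-/- library 5 or 6, where the adjusted p reached 0.073, and when median-of-ratios factors were used (adjusted p = 0.141). Scn4b, a sodium channel beta subunit, stood at 8.78, 9.07 and 11.6 CPM against 21.2, 29.8 and 7.76 CPM and was the member called higher after rescaling (log2 difference 0.78, adjusted p = 0.0612, and 1.15, adjusted p = 0.0097, after rescaling), or on deposited values without library 9 (adjusted p = 0.00116).

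Potassium channel genes were lower in 19 and higher in 1 of 25 tested on the deposited scale, and lower in 17 and higher in 1 after rescaling. Beside these counts, 41.2% and 21.3% of all genes were lower. Kcnip2, the subunit that shapes the transient outward current, had 37.6, 41.3 and 43.1 CPM against 10.4, 4.24 and 7.68 CPM (log2 difference -2.45, SE 0.26, adjusted p = 4.06e-07, rescaled -2.08). Kcnj3, a channel opened by acetylcholine through the vagus, stood at 125, 125 and 115 CPM against 30.1, 49.1 and 20.9 CPM (log2 difference -1.94, SE 0.27, adjusted p = 1.45e-05, rescaled -1.55). Kcnh2, of the rapid delayed rectifier, measured 138, 129 and 112 CPM against 55.5, 34.1 and 39.6 CPM. Kcne1 and Kcne4 both encode small subunits that bind the channel KCNQ1, and they moved in opposite directions. Kcne1 stood at 22.96, 20.4 and 18.3 CPM against 3.4, 3.03 and 2.97 CPM (log2 difference -2.53, SE 0.26, adjusted p = 2.37e-07, rescaled -2.18), and Kcne4, the 1 member called higher, at 7.62, 5.22 and 4.51 CPM against 19.1, 14.5 and 13.8 CPM (log2 difference 1.39, SE 0.32, adjusted p = 0.00174, rescaled 1.76). The groups overlapped in neither.

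Receptors through which nerves and hormones act on the node were lower in part. Of 27 tested genes of autonomic receptors and cyclic AMP, 18 were lower and 0 higher on the deposited scale (1 higher without library 9), 14 and 2 after rescaling. Beside these counts, 41.2% and 21.3% of all genes were lower. The rescaled count of 14 fell to 9, 8, 9 and 9 without libraries 4, 5, 6 and 8, and that of 2 to 0 without library 4 or 6 and to 1 without library 5, 7, 8 or 9. Drd2, a dopamine receptor, had 15.1, 20.98 and 21.6 CPM against 1.38, 1.02 and 1.66 CPM (log2 difference -3.41, SE 0.27, adjusted p = 3.44e-09, rescaled -3.08). Gcgr, the glucagon receptor, stood at 13.9, 15 and 10.6 CPM against 1.1, 1.25 and 1.42 CPM (log2 difference -2.95, SE 0.26, adjusted p = 2.9e-08, rescaled -2.63). Adrb1, the main cardiac receptor for noradrenaline, measured 12.9, 14.1 and 12.6 CPM against 7.44, 4.16 and 2.62 CPM (log2 difference -1.49, SE 0.29, adjusted p = 0.000519, rescaled -1.14). Chrm2, the receptor for acetylcholine in the node, stood at 96.5, 132 and 112 CPM against 106, 78.9 and 58.9 CPM, with library 7 inside the range of the other group (log2 difference -0.51, adjusted p = 0.0771, and -0.12, adjusted p = 0.54, after rescaling). Without library 7 it was called lower on the deposited scale (adjusted p = 0.0111).

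Genes of myocyte contacts, identity and contraction moved less evenly. For this and the other lists of this paragraph, the shares of all genes lower were 41.2% on the deposited scale and 21.3% after rescaling. Of 14 intercalated disc genes, 12 were lower and 0 higher on the deposited scale (1 higher without library 9), 9 and 1 after rescaling. Cdh2, N-cadherin, stood at 89.2, 109 and 101.15 CPM against 44.5, 37.98 and 44.8 CPM (log2 difference -1.22, SE 0.20, adjusted p = 7.05e-05, rescaled -0.84), and the desmosomal Pkp2, the member higher after rescaling, at 68.6, 76.04 and 68.2 CPM against 117, 97.3 and 69.8 CPM (log2 difference 0.39, adjusted p = 0.134, and 0.77, adjusted p = 0.000107, after rescaling, with a deposited adjusted p of 0.00679 without library 9). Of 28 cardiac transcription factors tested, 21 were lower and 0 higher, 14 and 1 after rescaling. The rescaled count of 14 fell to 7 and 9 without libraries 5 and 6, and that of 1 to 0 without library 6 or 8. Prox1 stood at 35.4, 38.9 and 39.9 CPM against 13.6, 8.79 and 10.6 CPM (log2 difference -1.76, SE 0.22, adjusted p = 3.5e-06, rescaled -1.39). Irx4, a ventricular identity factor, measured 12.5, 13.6 and 15.5 CPM against 4.06, 1.82 and 5.2 CPM (log2 difference -1.87, SE 0.29, adjusted p = 6.26e-05, rescaled -1.51). Of 12 ventricular genes, 10 were lower and 0 higher, 9 and 0 after rescaling. Of 13 atrial genes tested, 5 were lower and 1 higher, 4 and 1 after rescaling (2 lower without library 4, 5 or 9), and the count of 5 became 3 without library 5 or 9 and the count of 1 became 0 without library 8.

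Sarcomere genes did not move as a block. Of 25 tested, 9 were lower and 1 higher on the deposited scale, 8 and 7 after rescaling, and the count of 1 became 0 without library 7 or 8 and 4 without library 9. Over all genes, 41.2% were lower and 2.76% higher on the deposited scale, and 21.3% and 8.67% after rescaling. Myh7b, a slow-type myosin gene, was lower, with 34.8, 40.6 and 35.9 CPM against 3.23, 1.94 and 2.02 CPM (log2 difference -3.72, SE 0.23, adjusted p = 5.84e-11, rescaled -3.38). It was among the 12 largest decreases that were named. Myh6, the chief myosin of the adult mouse heart, had 9194, 10505 and 9487 CPM against 4592, 3017 and 2698 CPM (log2 difference -1.54, SE 0.32, adjusted p = 0.000767, rescaled -1.15). Mybpc3, which tunes myosin, stood at 1605, 1715 and 1684 CPM against 809, 550.13 and 531 CPM (log2 difference -1.43, SE 0.24, adjusted p = 0.000116, rescaled -1.04). Against these, Xirp1, a protein of stressed and repairing myocytes, measured 116, 124 and 113 CPM against 381, 253 and 120.23 CPM, with overlap through library 9 (log2 difference 0.94, SE 0.28, adjusted p = 0.0119, rescaled 1.33, adjusted p up to 0.0753 without library 7 or 8). Csrp3, a mechanosensor of the Z-disc, stood at 968, 823 and 909.5 CPM against 2090, 1066 and 787 CPM and was called after rescaling (log2 difference 0.42, adjusted p = 0.217, and 0.81, adjusted p = 0.00441, after rescaling), or on deposited values without library 9 (adjusted p = 0.0227). Klhdc8a and Lingo3, named only for being among the largest decreases, stood at 22.1, 18.9 and 20.6 CPM against 1.59, 0.17 and 2.03 CPM and at 7.55, 5.25 and 6.95 CPM against 0.86, 0 and 0 CPM. Lingo3 passed the filter through the Cx3cr1 Cx43-/- libraries alone.

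Protein quality control genes depended on the scale. Over all genes, 2.76% were higher and 41.2% lower on the deposited scale, and 8.67% and 21.3% after rescaling. Of 20 heat shock genes, 3 were higher and 4 lower on the deposited scale, 6 and 1 after rescaling (3 lower without library 7). The count of 3 became 5 without library 9, and the count of 4 became 1, 2, 8 and 2 without libraries 5, 6, 7 and 8. Hspb1, a small heat shock protein, stood at 33.8, 29.3 and 26.6 CPM against 184, 95.7 and 57.1 CPM (log2 difference 1.74, SE 0.28, adjusted p = 8.98e-05, rescaled 2.12). Hspa1b, an inducible HSP70 with a near-identical copy that makes its value uncertain, measured 1.48, 2.23 and 1.9 CPM against 35.96, 18.3 and 5.82 CPM (log2 difference 2.79, SE 0.42, adjusted p = 3.94e-05, rescaled 3.14). Hspa8, the constitutive HSP70, was lower, with 115, 119 and 104 CPM against 21.4, 11.6 and 8.84 CPM (log2 difference -3.06, SE 0.24, adjusted p = 4.86e-09, rescaled -2.68), and its processed copies in the genome make that value uncertain. Of 28 proteasome genes, 0 were higher and 1 lower on the deposited scale (7 higher without library 9, 4 lower without library 7), 13 and 1 after rescaling (7, 8 and 8 higher without libraries 5, 6 and 8). Psmb4, a core subunit, had 139.64, 106 and 113 CPM against 169.68, 195 and 108 CPM (log2 difference 0.36, adjusted p = 0.2, and 0.75, adjusted p = 0.00727, after rescaling), and its deposited adjusted p was 0.0202 without library 9. Psmd1, of the regulatory cap, was the member called lower, at 61.2, 77.9 and 67.4 CPM against 50.9, 41.1 and 29.1 CPM (log2 difference -0.79, adjusted p = 0.00634, and -0.41, adjusted p = 0.0167, after rescaling), but not with median-of-ratios scaling (adjusted p = 0.169) or, on the rescaled values, without library 5 or 6 (adjusted p up to 0.106).

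Energy genes were lower in part. Over all genes, 41.2% were lower and 2.76% higher on the deposited scale, and 21.3% and 8.67% after rescaling. Of 36 genes of the respiratory chain and citrate cycle, 18 were lower and 0 higher (11 and 10 lower without Cx3cr1 Cx43-/- libraries 4 and 5, 2 higher without library 9), 13 and 6 after rescaling (0, 3 and 3 higher without libraries 5, 6 and 8). Ogdh, of the citrate cycle, stood at 792, 953 and 919.85 CPM against 486, 331 and 303 CPM (log2 difference -1.28, SE 0.23, adjusted p = 0.00025, rescaled -0.89). Slc2a4, the insulin-dependent glucose transporter GLUT4, measured 185, 189 and 180.26 CPM against 83.7, 57.1 and 51.4 CPM (log2 difference -1.55, SE 0.21, adjusted p = 1.41e-05, rescaled -1.17). Neither overlapped between groups. Of 28 growth factor genes tested, 3 were higher and 14 lower (5 higher without library 9, 9 lower without library 5), 7 and 8 after rescaling (4 higher without library 5 or 8, 5 lower without library 5). Ereg, an EGF-family ligand like Hbegf, was higher, with 0.75, 0.32 and 0.49 CPM against 14.2, 7.69 and 4.79 CPM, having passed the filter through the macrophage-depleted libraries alone. Erbb4, a receptor for neuregulin and Hbegf, had 16.2, 15.6 and 15.6 CPM against 6.14, 3.78 and 4.25 CPM (log2 difference -1.67, SE 0.26, adjusted p = 5.03e-05, rescaled -1.31).

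Vessel genes were lower in part, with fewer called after rescaling. Of 25 endothelial genes, 16 were lower and 0 higher on the deposited scale (1 higher without library 9), 11 and 0 after rescaling (3 higher without library 9). With median-of-ratios scaling 7 were lower and 1 higher. The shares of all genes lower on these scales were 41.2%, 21.3% and 12.8%. Aplnr, the apelin receptor, stood at 23.1, 22.3 and 32.9 CPM against 2.11, 1.53 and 3.42 CPM (log2 difference -3.25, SE 0.27, adjusted p = 8.44e-09, rescaled -2.90), and its ligand Apln at 6.12, 5.88 and 9.5 CPM against 1.14, 1.36 and 0.72 CPM (log2 difference -2.27, SE 0.32, adjusted p = 1.89e-05, rescaled -1.98). Kdr, the VEGF receptor of capillaries, measured 65.8, 88.1 and 80.5 CPM against 21.9, 17.9 and 20.1 CPM (log2 difference -1.94, SE 0.21, adjusted p = 7.97e-07, rescaled -1.55). Vwf, von Willebrand factor of larger vessels, was lower, with 106, 145 and 114 CPM against 51.9, 38.02 and 22.2 CPM (log2 difference -1.76, SE 0.28, adjusted p = 8.06e-05, rescaled -1.38), and the controls lay with the latter at 74.3, 32.1 and 41.1 CPM. Of 6 red cell and platelet genes tested, 5 were lower both before and after rescaling, but 3 when median-of-ratios factors were used. The rescaled count fell to 1 without library 4, 5 or 8 and to 3 without library 9. Hbb-b1, a haemoglobin gene with near copies, had 20.1, 18.96 and 10.04 CPM against 8.47, 4.7 and 2.88 CPM with controls at 2.91, 9.06 and 4.2 CPM (log2 difference -1.58, SE 0.38, adjusted p = 0.00239, rescaled -1.23), and the call was lost with median-of-ratios scaling (adjusted p = 0.0599) and, on the rescaled values, without library 4, 5, 8 or 9 (adjusted p up to 0.104).

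Fat cell genes differed widely between libraries of the same group. Of 17 tested, 2 were higher and 2 lower on the deposited scale, 6 and 2 after rescaling, and the count of 2 higher became 0 without library 4 or 8 and 1 without library 5, 6 or 7. Among all genes, 2.76% were higher and 41.2% lower on the deposited scale, and 8.67% and 21.3% after rescaling. Cfd, adipsin, stood at 5.82, 49.96 and 45.5 CPM against 18.8, 175 and 31.6 CPM, lowest in library 4 and highest in library 8, and the groups overlapped (adjusted p = 0.203). The 19 listed genes summed to 2080, 2565 and 2573 CPM in the Cx3cr1 Cx43-/- libraries and 2384, 2837 and 1628 CPM in libraries 7, 8 and 9. Fat cells can be carried along when a node is dissected, and their part in other values was not tested.

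**Figure D4:**
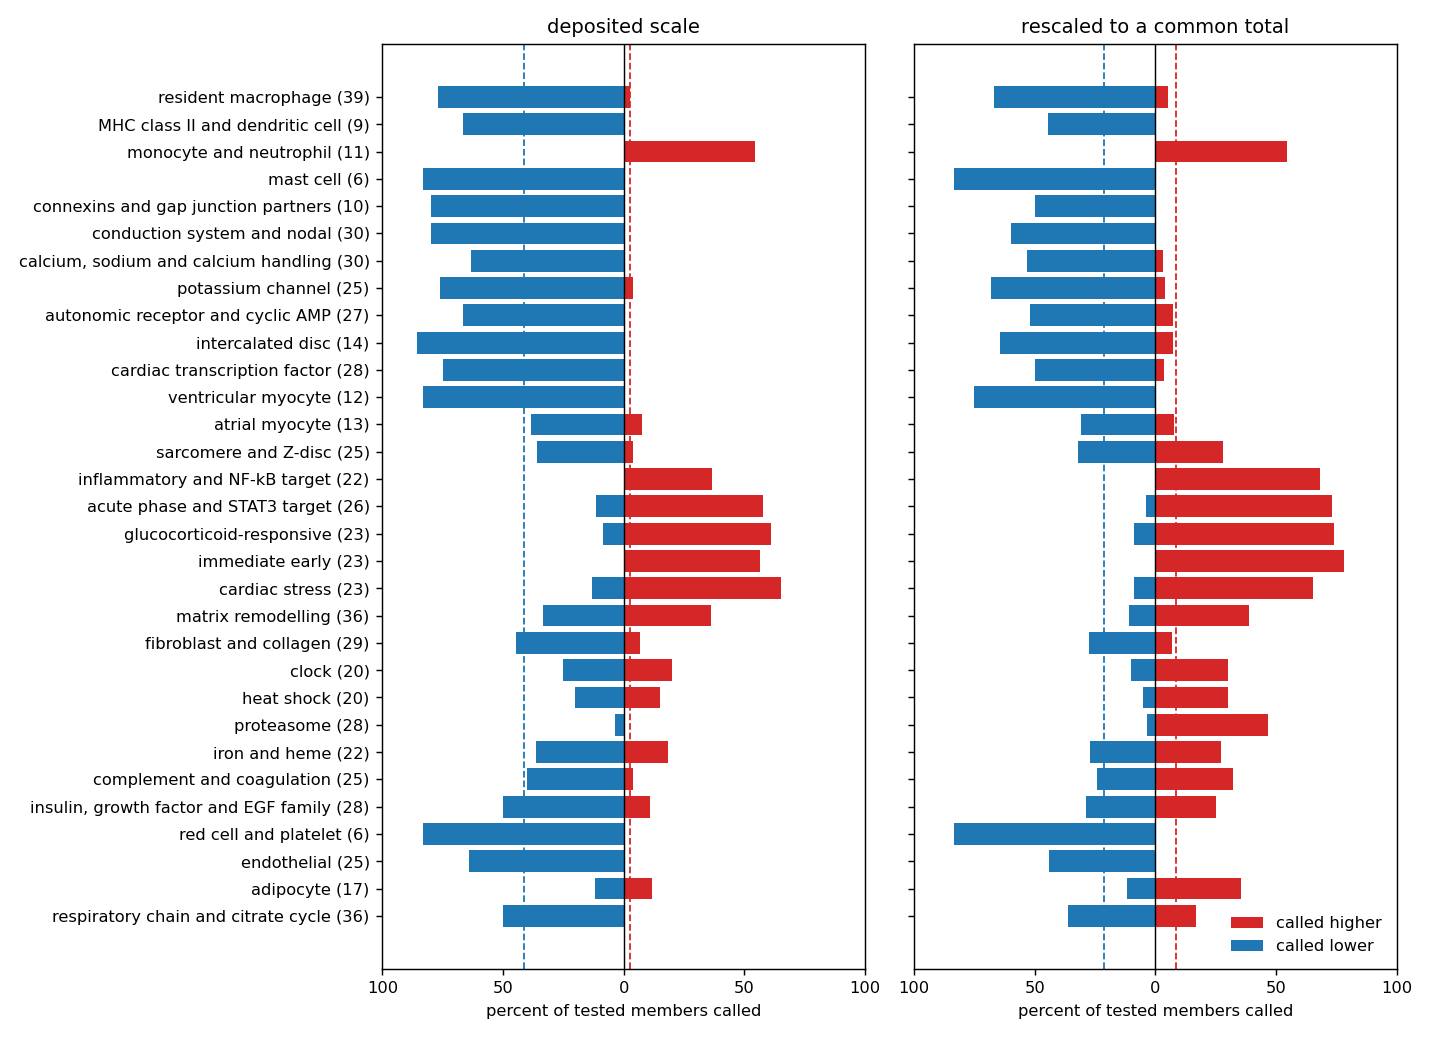
Percent of tested members called higher and called lower in the macrophage-depleted libraries for 31 gene lists (tested members in brackets), on the deposited scale at left and after rescaling at right. Dashed lines mark all 12600 genes, at 2.76% higher and 41.2% lower on the deposited scale and 8.67% and 21.3% after rescaling. Acute phase, glucocorticoid, immediate early and cardiac stress lists are among those furthest to the higher side, and mast cell, connexin, conduction, intercalated disc and ventricular lists among those furthest to the lower side.

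On the deposited scale, the shares called lower in the complement, fibroblast, iron, atrial and sarcomere lists lay near the 41.2% of all genes. Those of the growth factor and respiratory lists lay above it. Those of the acute phase, glucocorticoid, cardiac stress, clock, matrix remodelling, heat shock and proteasome lists lay below it.

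The control libraries lay mostly with the Cx3cr1 Cx43-/- libraries. After rescaling, of the 347 genes called higher on both scales, 283 (81.6%) had controls that overlapped the Cx3cr1 Cx43-/- range and stood apart from the macrophage-depleted one. In 5 genes (1.44%) it was the other way round, in 38 the controls stood apart from both, and in 21 (6.05%) they overlapped both. Of the 2679 genes called lower on both scales, the counts were 1986 (74.1%), 93 (3.47%), 242 (9.03%) and 358 (13.4%). Both comparisons with control share the same 3 control libraries. In limma's fit of Cx3cr1 Cx43-/- against control, 1 gene was called on each scale, and in that of macrophage-depleted against control 4605 on the deposited scale and 3634 after rescaling.

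A small number of genes had controls between the groups without overlap on either scale. There were 7 that were higher and 51 that were lower in the macrophage-depleted libraries. They come from 218 higher and 2168 lower genes that were called on both scales and did not overlap between groups on either. Genes of that pool also averaged at least 5 CPM in their higher group and had characterised symbols. How many such genes the order of 3 against 3 libraries alone would give was not tested, and the counts do not mark them as a class. Mmp3 was the largest of the 7, with 26.2, 24.9 and 22.9 CPM in controls between 11.8, 15.2 and 14.4 CPM in the Cx3cr1 Cx43-/- and 166, 315 and 164 CPM in the macrophage-depleted libraries. Cxcl14, a chemokine of stromal cells, stood at 14.2, 9.87 and 11.8 CPM in controls, 4.16, 9.79 and 7.51 CPM in Cx3cr1 Cx43-/- and 33.5, 36.99 and 14.6 CPM in macrophage-depleted libraries (log2 difference 1.88, SE 0.32, adjusted p = 0.000136, rescaled 2.26). Alpl, tissue-nonspecific alkaline phosphatase, stood at 19.8, 17.2 and 16.7 CPM in controls, then 13.97, 14.3 and 12.1 CPM, then 62.1, 38.7 and 30.5 CPM in the same order of groups (log2 difference 1.61, SE 0.24, adjusted p = 4.19e-05, rescaled 1.99). The others named here are Nfil3, the AP-1 subunit Fosl2, at 27.3, 28.6 and 26.7 CPM in controls, then 19.3, 19.7 and 22.4 CPM, then 71.2, 45.2 and 42.1 CPM, and Mif, a cytokine, at 10.1, 8.98 and 9.44 CPM in controls, then 8.9, 8.17 and 8.34 CPM, then 16.8, 15.5 and 10.9 CPM. The call of Mif was lost without library 4, 5, 6 or 8, where its adjusted p reached 0.0917.

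On the lower side were, among others, genes of elastic fibres and of phagocytes. Eln, elastin, stood at 52.01, 41.7 and 53.3 CPM in controls, 126, 69.7 and 113 CPM in Cx3cr1 Cx43-/- and 26.6, 25.5 and 25.7 CPM in macrophage-depleted libraries (log2 difference -1.93, SE 0.22, adjusted p = 1.64e-06, rescaled -1.54). Mfap4, a protein of elastic microfibrils, stood at 62.7, 52.3 and 70.2 CPM in controls, then 111, 91.6 and 135 CPM, then 26.2, 30.2 and 34.1 CPM (log2 difference -1.87, SE 0.21, adjusted p = 1.03e-06, rescaled -1.49). Olfml2a, an extracellular matrix protein, stood at 14.2, 8.14 and 13.1 CPM in controls, then 20.3, 16.1 and 16.3 CPM, then 3.88, 3.4 and 3.56 CPM. Siglec1, the sialic acid receptor CD169 of resident macrophages, stood at 4.98, 1.99 and 2.93 CPM in controls, then 6.25, 12.8 and 6.04 CPM, then 0.02, 0.44 and 1.29 CPM (log2 difference -3.13, SE 0.43, adjusted p = 1.44e-05, rescaled -2.82). Mgl2, described above, and Gbp9, an interferon-induced GTPase, complete the 6 named. Gbp9 stood at 7.42, 5.8 and 5.93 CPM in controls, then 8.58, 10.2 and 11.3 CPM, then 1.4, 3.09 and 2.43 CPM. Genes were ranked by the smaller of the rescaled log2 differences of macrophage-depleted and of Cx3cr1 Cx43-/- libraries from control. In none of these 12 genes was Cx3cr1 Cx43-/- itself called different from control by limma after rescaling (adjusted p between 0.614 and 1), so their place on the far side of control rests on values that do not overlap and not on a call.

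**Figure D5:**
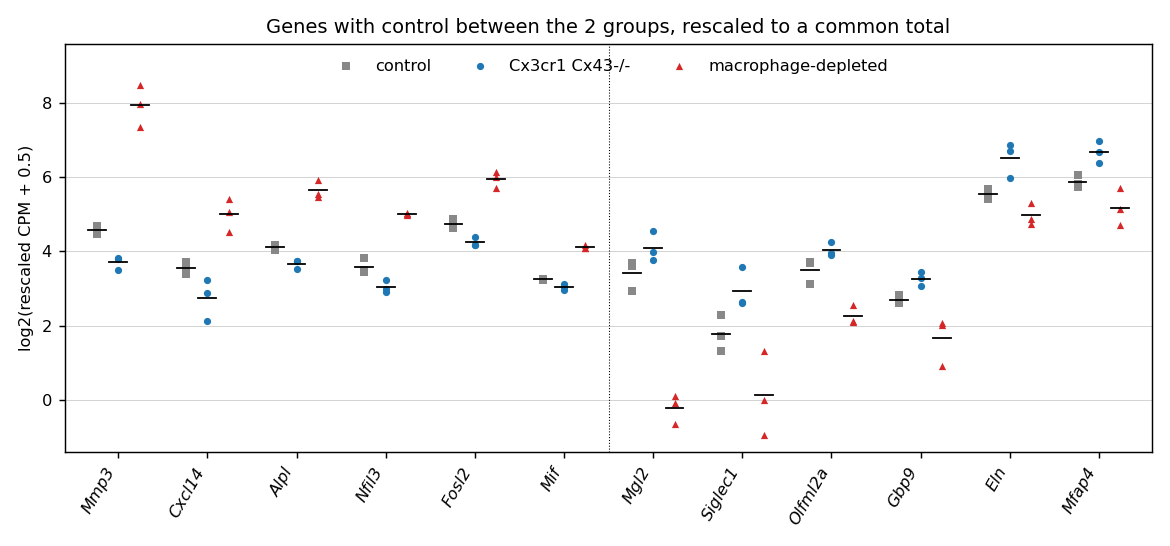
Levels of the 12 named genes among those whose control libraries lie between the groups, after rescaling to a common total. The axis is log2(CPM + 0.5), with 1 point per library and a bar at each group mean. On the left 6 genes rise from Cx3cr1 Cx43-/- through control to macrophage-depleted libraries, on the right 6 genes fall in that order, with no overlap of the groups.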

How the data were processed

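The original study sequenced 9 libraries of microdissected AV node RNA, 3 in each of 3 groups. The authors' deposited table gives CPM (counts scaled to 1000000 per library) for 34198 gene symbols, rounded to 2 decimals. Per the submitters' processing notes it was made with STAR 2.3.0, HTSeq 0.6.0 and edgeR on build mm9, in roles those notes do not state. DNase treatment of the RNA and a directional library kit are given per the labels' protocols. Groups follow the genotype labels, and library numbers follow the sample titles.

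From these values log2(CPM + 0.5) was fitted in limma 3.58.1 (R 4.3.3) with a trended prior over all 9 libraries in 1 model, and the contrast is macrophage-depleted minus Cx3cr1 Cx43-/-. Genes needed at least 1 CPM in at least 3 of the 6 libraries compared, and the fit was repeated on libraries rescaled to a common total and with median-of-ratios scaling. The members and the 40 gene lists were chosen with earlier results of these data known, so lists are described by counts beside the percent of all genes called and were given no test of their own. Named genes are Gja1, Cx3cr1, Itgam and Hbegf, the 12 largest differences each way, up to 4 genes of smallest p per list, up to 6 each way with controls between the groups, and list members named for their role. The 12 largest were called on both scales, with a mean of at least 5 CPM in their higher group and no overlap. Like the genes with controls between the groups, they needed the symbol of a characterised gene, which leaves out numbered and ribosomal protein symbols.

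Depth per library is known only in part. Low CPM values fall on multiples of 0.0154 to 0.0192 CPM, so that 1 CPM stands for 52.2 to 64.9 reads, but only 18.8% to 50.8% of values lay within 0.1 read of a whole read after the rounding, and no count model was fitted. No pair of libraries held identical values. The fit was tested on simulated data (200 changed genes, 10 draws), where 4.17% of calls were false. Noise was independent between genes and no library was shifted as a whole, so that share does not carry over to the scale difference in the data. Alternatives covered scaling, pseudocount, filter, libraries in the fit, library weights, robust priors and leaving out each library. Promoters came from RefSeq (GRCm38.p6) for 106 of 155 named genes matched by symbol, and no file coordinates were used.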

Additional observations from a re-analysis of the deposited data

How the results depend on the processing

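No paired analysis was possible because the library numbers run from 1 to 9 and no number is shared between groups. Of the 127 genes named in the text with a fit, 114 were called on the deposited scale. Among these, 102 kept the call and direction under each of the 22 alternatives in which they were tested, while 12 lost it under at least 1. Some low genes, such as Timd4 and Cpa3, fell below the filter of a mean of at least 5 CPM and were not tested there. Rescaling to a common total lost 2 of the 114 and median-of-ratios scaling 6. The number of genes called, 5538 on the deposited scale, was 3321 with median-of-ratios scaling and 3367 with quantile normalization, and ranged from 3279 to 6969 with 1 library left out (3279 without library 5, 6969 without library 7). After rescaling, leaving out 1 library gave 2176 to 4161 (2176 without library 5). The count of higher genes, 348, was 1093 after rescaling, 1707 with median-of-ratios scaling, 1571 with quantile normalization and 810 with library quality weights, and 239 to 642 with 1 library left out (642 without library 9), or 677 to 1176 on rescaled values. The count of lower genes, 5190, was 2679, 1614 and 1796 under the same 3 scalings, and 3040 to 6679 with 1 library left out (3040 without library 5), or 1499 to 2985 on rescaled values. Of these, only the effect of the scalings follows from their construction; the cause of the others was not tested.

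Among genes not called, signs turned as follows. Nppa gave 0.15 after rescaling, 0.34 with median-of-ratios scaling and 0.02 with quantile normalization, and Shox2 gave 0.05, 0.23 and 0.24. Chrm2 gave 0.07 with median-of-ratios scaling. With 1 library left out, on deposited or rescaled values, Nppa ran from -0.62 to 0.29, Shox2 from -0.77 to 0.47, Mt3 from -0.35 to 0.72, Itgam from -0.98 to 0.34 and Cfd from -0.01 to 2.14.

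Rounding of the deposited CPM to 2 decimals limits genes near 0. With 3 libraries a group, exact permutation could not go below p = 0.1, so single values rest on the moderated fit.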
